A study of Mus musculus with 12 samples.

Results

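The genes described here encode 8 secreted peptides and growth factors, namely the trefoil peptide gene *Tff1*, the neuropeptide precursor genes *Penk* and *Calca*, the hormone-like gene *Pthlh*, and the growth factor genes *Bmp2*, *Bmp7*, *Hbegf* and *Vegfa*. They were listed by name with results of these data already known, and *Tff1* and *Bmp2* were chosen by their measured values, which differ strongly between IL-33 and PBS, so these differences are given as a description with no test. Levels are in FPKM, a unit that corrects fragment counts for transcript length and library size. A mean of at least 0.5 FPKM over the 12 libraries was reached by 7 of the 8 genes and by 11395 genes in all, and these were tested. *Pthlh* did not reach it, and *Tff1* and *Penk* reached it through the IL-33 libraries alone.

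The study sequenced RNA from group 2 innate lymphoid cells (ILC2s) sorted from the lungs of mice (C57BL/6 by the labels, C57BL/6J by the methods), to compare ILC2s from WT mice with those from mice that lack the semaphorin Sema6D (*Sema6d*-/-, labelled 6DKO). Mice of both genotypes were given either PBS or recombinant mouse IL-33 through the nose for 3 days, which makes 4 groups of 3 libraries: WT with PBS, *Sema6d*-/- with PBS, WT with IL-33 and *Sema6d*-/- with IL-33. The methods give the age of the mice as 7 to 12 weeks and the sort gate as CD45+ Lin- Thy1.2+ ST2+. The labels give an IL-33 dose of 50 ng and the methods a higher one, so the dose behind these libraries is uncertain. The knockout is of the whole animal and not of ILC2s alone, and the level of *Sema6d* in these libraries is given below. The labels do not say whether replicates of a group came from separate mice, and the p-values measure the spread between these libraries only.

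ILC2s are tissue-resident lymphocytes that the alarmin IL-33 activates through its receptor ST2, and besides type 2 cytokines they make factors that act on epithelium, vessels, nerves and stroma. Trefoil peptides are secreted with mucus and take part in epithelial repair, BMP2 and BMP7 are ligands of the TGF-β superfamily that signal through SMAD proteins, and HB-EGF and VEGF-A act on epithelial and endothelial receptors. *Calca* encodes calcitonin and calcitonin gene-related peptide (CGRP) by alternative splicing, *Penk* encodes the precursor of the enkephalins, and *Pthlh* encodes parathyroid hormone-related protein.

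The targeted gene was examined first as a check of the labels. *Sema6d* was at 27.5, 46.1 and 37.5 FPKM in the WT libraries with PBS against 29.0, 22.9 and 19.8 FPKM in the *Sema6d*-/- libraries with PBS. With IL-33 it was at 19.7, 35.5 and 28.7 FPKM in WT against 15.4, 13.6 and 13.8 FPKM in *Sema6d*-/- libraries. Gene-level reads of *Sema6d* were thus still present in the libraries labelled as knockouts. The ranges of the genotypes overlapped with PBS and did not overlap with IL-33 (exact permutation test, two-sided, p = 0.20 and p = 0.10, the latter being the smallest p that 3 against 3 libraries allow). The part of the gene that was deleted is not given in the sources used here, so a gene-level value is only a partial check.

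The PBS libraries were the less complete ones. Between 7696 and 9287 genes exceeded 1 FPKM in the PBS libraries and between 9917 and 10081 in the IL-33 libraries. Among 3617 genes of middle abundance, 169 to 641 stood at exactly 0 in each PBS library, and 25 to 50 in each library with IL-33. Read totals are not known. The relative depth estimated from low genes was 0.737 to 1 in PBS libraries and 0.966 to 1.39 in IL-33 libraries. Because genes that most cells use are also listed at 0, a value of 0 is given below only as a listing. A difference in log2(FPKM + 1) from a group at 0 depends on the pseudocount and is not a fold. The part of these differences in any change with IL-33 was not tested.

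*Tff1* was listed at 0 in the 6 PBS libraries. With IL-33 it was at 164, 144 and 257 FPKM in WT against 113, 77.7 and 102 FPKM in *Sema6d*-/- libraries. Each IL-33 library was above each PBS library, as the choice of the gene required. Between genotypes, the 3 *Sema6d*-/- libraries lay below the lowest WT library, with a mean of 97.4 ± 18.0 FPKM (SD, n = 3) against 188 ± 60.3 FPKM (SD, n = 3). The difference of −0.92 in log2(FPKM + 1) (SE 0.36) did not pass the test across all genes (limma, adjusted p = 1). *Tff2* and *Tff3*, which lie beside *Tff1* on chromosome 17, did not reach the mean for testing. *Tff2* was above 0 in 1 library at 0.337 FPKM, and *Tff3* in 2 *Sema6d*-/- libraries with IL-33 at 0.437 and 3.70 FPKM. With IL-33, *Tff1* was the trefoil gene with the highest value in each of the 6 libraries.

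*Penk* was likewise listed at 0 in the 6 PBS libraries. It was at 16.6, 11.0 and 36.1 FPKM in WT against 5.53, 3.78 and 11.2 FPKM in *Sema6d*-/- libraries with IL-33. The difference in log2(FPKM + 1) was 4.31 in WT and 2.86 in *Sema6d*-/- ILC2s, higher with IL-33 in 3 of 3 libraries each. No p is given for it, since *Penk* passed the filter on the mean only through the IL-33 libraries. The size of these differences depends on the pseudocount, since the PBS values are listed at 0. Between genotypes with IL-33 the ranges overlapped, because 11.2 FPKM in *Sema6d*-/- replicate 3 exceeded 11.0 FPKM in WT replicate 2. The genotype difference of −1.45 (SE 0.53) did not pass the test (limma, adjusted p = 1).

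WT IL-33 replicate 3 held the highest value of both *Tff1* and *Penk*. Without it, the genotype difference in log2(FPKM + 1) moved to −0.67 for *Tff1* and to −1.0 for *Penk*. In the annotation of GRCm38 the exons of *Tff1* overlap those of the antisense gene *Gm15318*, and the exons of *Penk* overlap those of *A830012C17Rik* on the opposite strand. Neither partner is in the tables, and the labels name a library kit that does not mark strand while the methods name one that does, so both values are uncertain to the extent that reads of the partners were counted.

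*Calca* was the most abundant of the 8 genes in all 4 groups. It was at 881, 698 and 577 FPKM in WT against 1139, 696 and 828 FPKM in *Sema6d*-/- libraries with PBS. With IL-33 the values were 275, 591 and 397 FPKM in WT and 466, 396 and 603 FPKM in *Sema6d*-/- libraries. The PBS and IL-33 ranges overlapped in WT by a narrow margin and did not overlap in *Sema6d*-/- libraries. The differences with IL-33, −0.82 (SE 0.28) in WT and −0.85 (SE 0.28) in *Sema6d*-/- ILC2s, did not pass the test (limma, adjusted p = 0.142 and 0.155). *Calca* made up 78.3% to 89.4% of the summed FPKM of the 8 genes in PBS libraries and 54.0% to 79.2% in IL-33 libraries. A gene-level FPKM does not separate calcitonin from CGRP transcripts. *Pthlh* was listed at 0 in all 12 libraries.

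**Figure D1:**
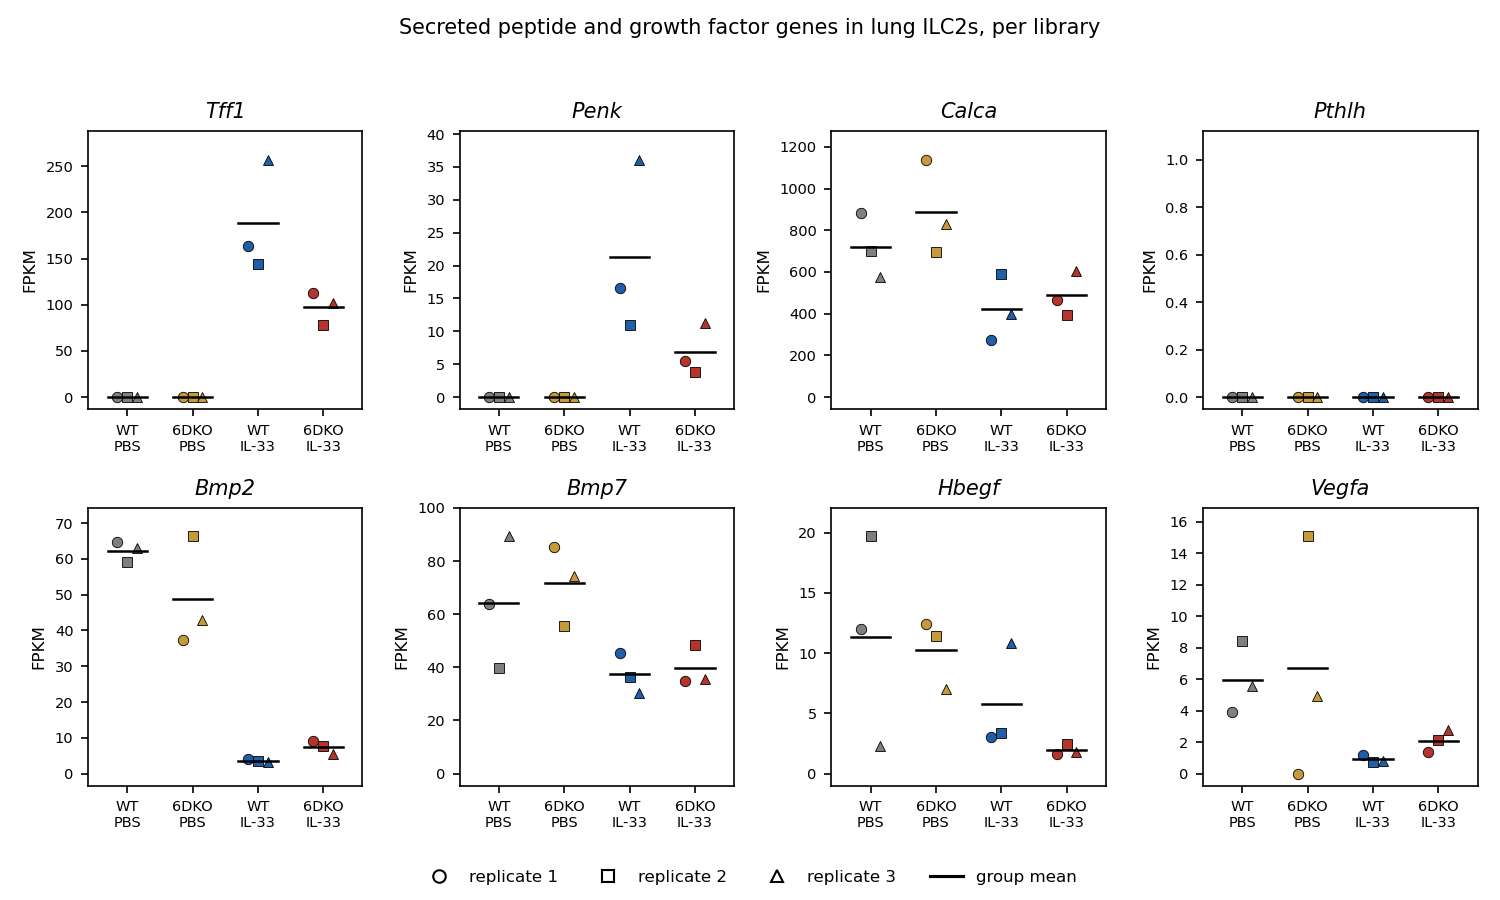
FPKM of the 8 genes (y axes, linear, 1 scale per gene) in each of the 12 libraries of lung ILC2s, by group (x axis, with *Sema6d*-/- shown as 6DKO). Symbols stand for replicates and bars for the mean of 3 libraries. *Tff1* and *Penk* are listed at 0 in the PBS libraries, *Pthlh* is at 0 throughout, and *Bmp2* lies between 37.4 and 66.4 FPKM with PBS and between 3.24 and 9.24 FPKM with IL-33.

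The BMP ligands were *Bmp2* and *Bmp7*. *Bmp2* was at 64.7, 59.0 and 63.1 FPKM in WT against 37.4, 66.4 and 42.9 FPKM in *Sema6d*-/- libraries with PBS. With IL-33 it was at 4.16, 3.57 and 3.24 FPKM in WT against 9.24, 7.78 and 5.51 FPKM in *Sema6d*-/- libraries. The PBS mean was 17.0 times the IL-33 mean in WT and 6.51 times in *Sema6d*-/- libraries, which describes the choice of the gene and was not tested. With IL-33 the 3 *Sema6d*-/- libraries lay above the highest WT library, with a mean 2.05 times that of WT. This difference of 0.85 (SE 0.33) did not pass the test across all genes (limma, adjusted p = 1). The genotypes overlapped with PBS, where the *Sema6d*-/- mean was 0.785 times that of WT. The interaction of genotype and treatment was 1.23 (SE 0.46). It is made of the IL-33 differences by which the gene was chosen, so no test is given for it.

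*Bmp7* was at 63.7, 39.6 and 89.4 FPKM in WT against 85.4, 55.6 and 74.5 FPKM in *Sema6d*-/- libraries with PBS. It was at 45.6, 36.5 and 30.4 FPKM in WT against 34.8, 48.4 and 35.8 FPKM in *Sema6d*-/- libraries with IL-33. The treatments overlapped in WT, where PBS replicate 2 fell within the IL-33 range, and were apart in *Sema6d*-/- libraries. The differences of −0.71 (SE 0.32) and −0.83 (SE 0.32) did not pass the test (limma, adjusted p = 0.272 and 0.227). With 1 library left out that in WT ranged from −1.01 to −0.43. With PBS *Bmp7* was above *Bmp2* in 3 of the 6 libraries, and with IL-33 in each of the 6. Both genes lie on chromosome 2, as does *Sema6d*, with *Bmp2* at 133552159 to 133562885, 8.88 Mb from *Sema6d*, and *Bmp7* at 172868012 to 172940321, 48.2 Mb away (GRCm38).

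*Hbegf*, a membrane-anchored ligand of the EGF receptor, was at 12, 19.7 and 2.29 FPKM in WT against 12.4, 11.4 and 7.06 FPKM in *Sema6d*-/- libraries with PBS. With IL-33 it was at 3.04, 3.38 and 10.8 FPKM in WT against 1.61, 2.45 and 1.81 FPKM in *Sema6d*-/- libraries. WT PBS replicate 3 was low and WT IL-33 replicate 3 was high, so the treatments overlapped in WT. In *Sema6d*-/- libraries they were apart. Neither difference passed the test, at −0.69 (SE 0.68) in WT and −1.91 (SE 0.68) in *Sema6d*-/- ILC2s (limma, adjusted p = 0.668 and 0.195). With 1 library left out the difference in WT ranged from −1.47 to −0.14, and the genotype difference with IL-33 from −1.29 to −0.52.

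*Vegfa*, the main angiogenic ligand of the VEGF family, was at 3.92, 8.39 and 5.56 FPKM in WT against 0, 15.1 and 4.94 FPKM in *Sema6d*-/- libraries with PBS. It was at 1.21, 0.752 and 0.790 FPKM in WT against 1.37, 2.14 and 2.79 FPKM in *Sema6d*-/- libraries with IL-33. The WT treatments were apart, and the *Sema6d*-/- PBS group spanned the whole range of the gene, from a listing of 0 in replicate 1 to the highest value in replicate 2. The difference was −1.82 (SE 0.81) in WT and −0.59 (SE 0.81) in *Sema6d*-/- ILC2s, and neither passed the test (limma, adjusted p = 0.271 and 0.792). The sign of the latter turned without *Sema6d*-/- PBS replicate 2 (0.32) and with a pseudocount of 0.1 (0.10), and without *Sema6d*-/- PBS replicate 1 it was −1.68.

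In order of mean FPKM with PBS, *Calca* came first, *Bmp7* and *Bmp2* followed with overlapping values, *Hbegf* and *Vegfa* overlapped each other below them, and *Tff1*, *Penk* and *Pthlh* were at 0. *Calca* ranked 188th of all genes in WT and 146th in *Sema6d*-/- ILC2s. With IL-33 *Tff1* came next after *Calca*, at rank 615 in WT and 1097 in *Sema6d*-/- ILC2s, while *Calca* was at ranks 323 and 270. *Bmp7* followed, with values that overlapped those of *Penk* in WT, and *Penk* and *Bmp2* overlapped in *Sema6d*-/- libraries. *Bmp2* moved from rank 1623 to 7814 in WT and from 2007 to 6173 in *Sema6d*-/- ILC2s.

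In each comparison of IL-33 with PBS, limma called 0 of the 4 members left without *Tff1*, *Bmp2* and *Penk* (*Bmp7*, *Hbegf*, *Vegfa* and *Calca*). Of all genes, 2.66% were called higher in WT and 1.75% in *Sema6d*-/- ILC2s, and 1.61% and 1.10% lower. In either direction limma called 4.27% of genes in WT, that is 486 of 11395, and 2.84% in *Sema6d*-/- ILC2s, or 324. At an unadjusted p under 0.05 the limma count of these 4 was 3 in each genotype (*Bmp7* and *Calca* in both, *Vegfa* in WT and *Hbegf* in *Sema6d*-/- ILC2s), against 17.6% and 15.2% of all genes. Free of overlap between PBS and IL-33 in WT were *Tff1* and *Penk* on the higher side (15.9% of all genes) and *Bmp2* and *Vegfa* on the lower (9.23%), together 4 of 7 members (25.1% of genes). In *Sema6d*-/- libraries *Tff1* and *Penk* were higher (13.9%) and *Bmp2*, *Bmp7*, *Hbegf* and *Calca* lower (8.75%), together 6 of 7 (22.7%). As *Tff1* and *Bmp2* count by choice and *Penk* through the filter, these tallies cannot be set against the shares of all genes. Among the other 4 members it was 1 in WT and 3 in *Sema6d*-/- libraries. Of the called genes, 303 of 486 and 199 of 324 were higher with IL-33. With quantile normalization this split became 248 of 479 and 136 of 270. Whether the shift of the median under that scaling made this change was not tested. The median log2 difference over all genes went from 0.16 to −0.04 in WT and from 0.14 to −0.02 in *Sema6d*-/- ILC2s. The differences of the members stand beside that median. In bulk RNA, a change in the make-up of the sorted cells and a change in RNA per cell cannot be told apart.

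Between genotypes no member was called in either treatment. With IL-33, limma called 1 of 11395 genes (0.00878%) and none of the 7 members, of which 3, *Tff1*, *Bmp2* and *Penk*, had an unadjusted p under 0.05 (1.83% of all genes). The values of 4 members did not overlap between genotypes, *Tff1* and *Hbegf* lower (7.35% of all genes) and *Bmp2* and *Vegfa* higher in *Sema6d*-/- ILC2s (6.88%), against 14.2% of genes in either direction. Of the 3 *Sema6d*-/- IL-33 libraries 2 were high in macrophage markers, and with these and 1 PBS library left out, the *Vegfa* difference was 0.31 in place of 0.67. As the list was drawn up with results known, this count was not tested. With PBS, limma called 0.579% of genes (0.333% higher and 0.246% lower) and none of the 5 members above 0, at an unadjusted p under 0.05 in 0 of them (12.9% of all genes), and no member was free of overlap (4.42% of all genes were on the higher side, 4.20% on the lower and 8.63% in all). The interaction called 2 genes (0.0176%) and no member. *Bmp7*, *Hbegf*, *Vegfa* and *Calca* were not at an unadjusted p under 0.05 there either, beside 5.57% of all genes. For *Tff1* and *Bmp2* no p of the interaction is given, since it uses the values by which they were chosen. None is given for *Penk*, which passed the filter only through the IL-33 libraries. A missed threshold does not show that the genotypes were alike. The 95% interval of the difference in log2(FPKM + 1) with IL-33 ran from −1.71 to −0.13 for *Tff1*, from −2.62 to −0.29 for *Penk* and from 0.14 to 1.56 for *Bmp2*, before any adjustment for the number of genes. It ran from −0.35 to 0.87 for *Calca* and from −0.61 to 0.77 for *Bmp7*. The spread is pooled over the 4 groups, and the PBS libraries of *Tff1* and *Penk*, all at 0, add none. The intervals and unadjusted p of *Tff1* and *Penk* can thus look firmer than their IL-33 libraries alone allow. The exact permutation test with IL-33 (two-sided) gave p = 0.10 for *Tff1* and *Bmp2* and p = 0.20 for *Penk*.

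**Figure D2:**
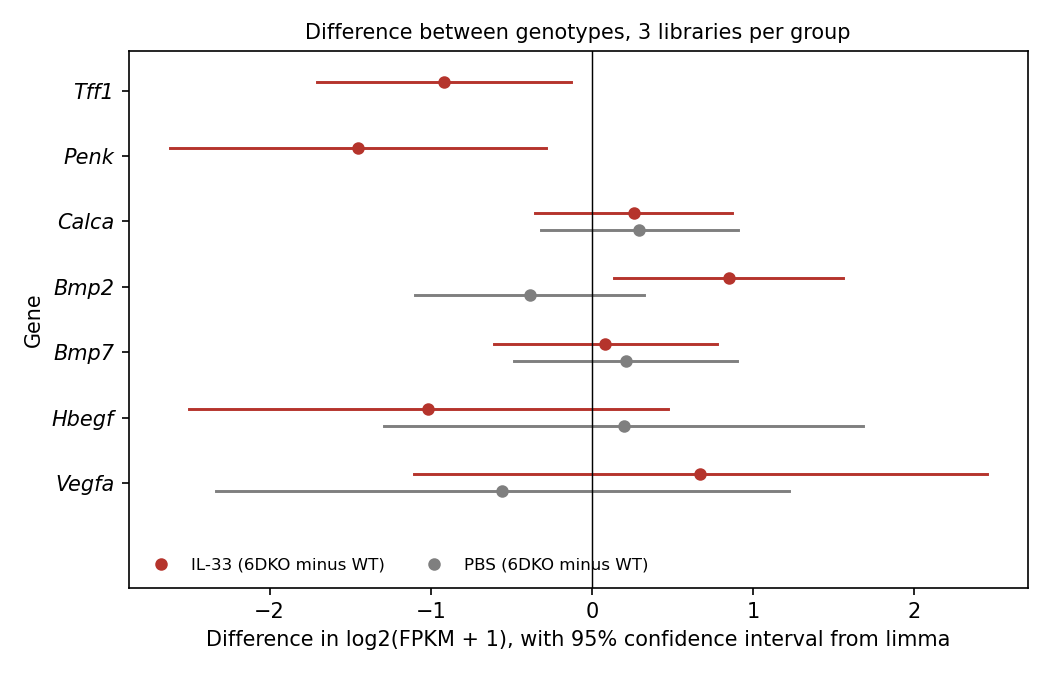
Difference between genotypes in log2(FPKM + 1), *Sema6d*-/- minus WT (x axis), for 7 genes (y axis) with IL-33 (red) and PBS (grey), 3 libraries per group. Points are limma estimates and lines their 95% confidence intervals, unadjusted for the number of genes. *Tff1* and *Penk* have no PBS value because both genotypes are listed at 0. With IL-33 the intervals of *Tff1*, *Penk* and *Bmp2* lie to one side of 0. The spread is pooled over the 4 groups, so PBS libraries at 0 can narrow the intervals of *Tff1* and *Penk*.

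The other genes of the pathways of the 8 members were taken from lists of ligands, receptors, inhibitors, targets and processing enzymes. Of 145 such genes besides the members, 144 were in the tables and 70 were tested. Left out of the calls are *Igf1*, which passed the filter only through the PBS libraries, and *Tgfb3*, which passed only through the IL-33 libraries. In WT ILC2s 0 were then higher and 3 lower with IL-33 (*Bambi*, *Csf1* and *Lif*). In *Sema6d*-/- ILC2s *Hif1a* was higher and 2 were lower (*Bambi* and *Lif*). Of all genes, 4.27% and 2.84% were called in either direction. The median log2 difference of the 70 genes was 0.15 in WT and 0.29 in *Sema6d*-/- ILC2s, beside 0.16 and 0.14 over all tested genes. No listed gene was called between genotypes or in the interaction (limma). At an unadjusted p under 0.05 were 0 of 70 with IL-33, 15 with PBS and 4 in the interaction. Of all genes it was 1.83%, 12.9% and 5.57%. The counts with PBS and in the interaction include *Igf1*. That with PBS also includes *Id4*, which was above 0 in 2 WT libraries with PBS alone. With IL-33 against PBS it was 16 of 70 in WT and 15 of 70 in *Sema6d*-/- ILC2s, and 17.6% and 15.2% of all genes. Both counts include, among others, *Tgfb3* and *Ankrd37*, the latter listed at 0 in the 3 WT libraries with PBS. That in WT also includes *Igf1*, *Id4* and *Acvr1*, the last listed at 0 in the same 3 libraries. As such genes passed the filter through the group where they are high, these counts cannot be set against the shares of all genes.

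Of the 8 listed BMP ligands, *Bmp2* and *Bmp7* alone were tested, and *Bmp3*, *Bmp5* and *Bmp6* were listed at 0 in all 12 libraries. Of 11 BMP receptors and SMADs 8 were tested and none was called, with *Bmpr1a* at 0.303 to 12.9 FPKM, *Acvr1* at 0 to 2.55 FPKM, *Bmpr2* at 0.0152 to 3.12 FPKM and the common mediator *Smad4* highest at 21.1 to 69.8 FPKM. Of 10 listed BMP targets 6 were tested and none was called, *Id2* being the most abundant. In *Sema6d*-/- ILC2s with IL-33, *Hey1* (2.87, SE 0.70; limma, adjusted p = 0.0524) and *Id3* (3.08, SE 0.81; limma, adjusted p = 0.0707) just missed the threshold, with 3 libraries per group. With PBS they were at 0, 0.142 and 5.46 FPKM and at 0, 10.7 and 0 FPKM there, so these sizes depend on the pseudocount. In WT the differences were −0.49 and −1.15 and did not pass (limma, adjusted p = 0.787 and 0.521). In the fits with 1 library left out, 0 to 1 targets were called higher in *Sema6d*-/- ILC2s (1 in 3 of 12 fits) and 0 to 1 lower in WT (1 in 1 of 12). Of 14 BMP inhibitors 5 were tested, and the antagonists *Nog* and *Grem1* were at 0 throughout.

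*Bambi*, a pseudoreceptor that dampens BMP and TGF-β signalling, had the highest mean of the inhibitors over the 12 libraries, though not in *Sema6d*-/- ILC2s with IL-33, where *Smad7* was higher, and was the 1 called in both genotypes. It was at 48.5, 83.0 and 65.2 FPKM in WT against 60.2, 56.7 and 65.7 FPKM in *Sema6d*-/- libraries with PBS. With IL-33 it was at 15.5, 12.9 and 17.0 FPKM in WT against 14.8, 13.8 and 18.1 FPKM in *Sema6d*-/- libraries, so each IL-33 library was below each PBS library. The difference was −2.02 (SE 0.27) in WT and −1.91 (SE 0.27) in *Sema6d*-/- ILC2s (limma, adjusted p = 0.0016 and 0.00339). The call in *Sema6d*-/- ILC2s was lost when 3 libraries high in macrophage markers were left out together, where the difference was −2.02 with 1 library in that IL-33 group (limma, adjusted p = 0.108).

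Among the EGF family ligands, 3 of 11, *Hbegf* among them, were tested and none was called. *Areg*, the ligand by which ILC2s are best known to act on epithelium, was the most abundant at 1063 to 2188 FPKM and exceeded *Hbegf* in all 12 libraries. The receptors of *Hbegf* were near 0, *Egfr* above 0 in 1 library at 0.0495 FPKM and *Erbb4* in none, and of 8 EGF receptors and sheddases 4 were tested and 0 were called, with the sheddase *Adam10* highest at 13.1 to 29.5 FPKM. The VEGF and PDGF ligands, *Vegfa* included (9 of 10 symbols in the tables, 5 tested, 0 called), had *Vegfc* with the highest mean over the 12 libraries, at 0 to 22.4 FPKM. In WT with PBS, however, *Vegfb*, *Vegfa* and *Pdgfb* had higher means than *Vegfc*. Of the 5 receptors for *Vegfa* and its relatives 3 were tested and 0 called, with *Flt1* at 0.201 FPKM in 1 library, *Kdr* at most at 1.28 FPKM and the co-receptor *Nrp1* at 23.0 to 57.0 FPKM.

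Of 5 CGRP and calcitonin family ligands 3, *Calca* among them, were tested and none was called. *Calcb*, which encodes the β form of CGRP, was at 0 to 2.18 FPKM, far below *Calca*. For the receptor of CGRP, the product of *Calca*, the subunit gene *Ramp1* was at 208 to 365 FPKM, and *Calcrl* itself at 3.36 to 25.3 FPKM. *Ramp3*, which directs *Calcrl* toward adrenomedullin, had the highest mean of the 6 receptor genes over the 12 libraries, at 113 to 574 FPKM, but *Ramp1* had the higher mean in each group other than WT with PBS. Of the 6 genes 5 were tested and 0 called.

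Of 4 opioid peptide genes, *Penk* and *Pomc* were tested, and *Pdyn* and *Pnoc* were at 0 in all 12 libraries. *Pomc* was not called. Among the receptors for the enkephalins of *Penk* and other opioids, *Oprm1* was at 0.292 FPKM in 1 library and *Oprd1* at 0 in all, whereas *Ogfr*, an enkephalin-binding receptor outside the classical family, was at 18.5 to 47.8 FPKM. *Ogfr* was the 1 tested gene of the 5 and was not called. Of *Pthlh* and the other genes of the parathyroid hormone list, 5 in all, 0 were tested, and its receptor gene *Pth1r* was above 0 in 2 libraries, at 0.606 and 0.0542 FPKM.

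Of 13 listed enzymes that process precursors such as those of *Bmp2*, *Penk* and *Calca*, 5 were tested and 0 were called. *Furin*, which cleaves BMP precursors among many others, was at 134 to 276 FPKM, and *Pcsk1*, a convertase of neuropeptide precursors, was at 65.8 to 135 FPKM in all 12 libraries. *Pcsk2* was at 0 in all 12 libraries, and *Cpe* was above 0 in 1 library at 3.35 FPKM. *Pam*, which amidates peptides such as CGRP, was above 0 in 4 of 12 libraries, with 4.45 FPKM in *Sema6d*-/- PBS replicate 2 as its highest value.

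**Figure D3:**
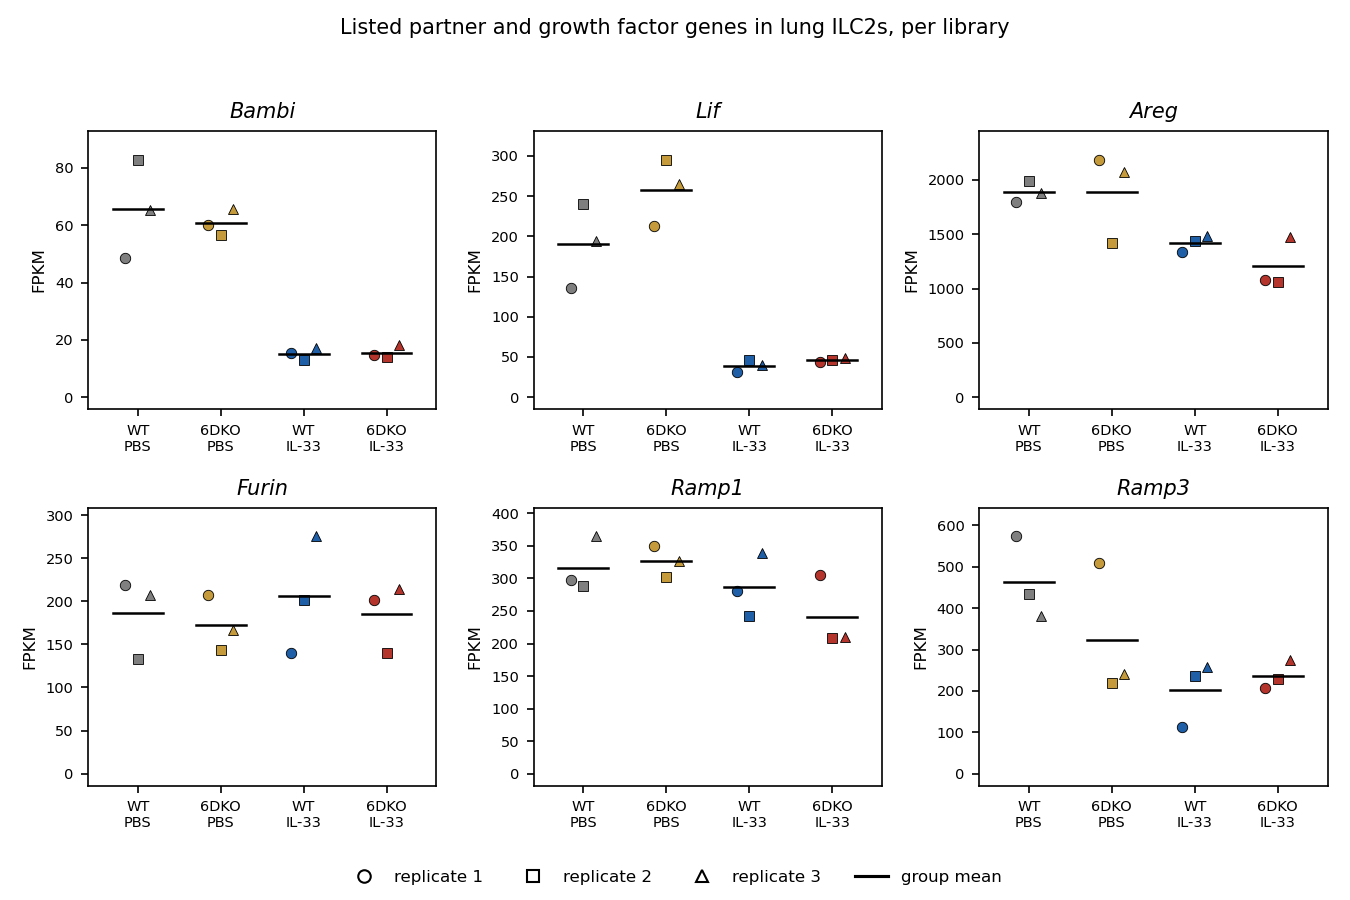
FPKM of 6 listed genes of the same pathways (y axes, linear, 1 scale per gene) in each of the 12 libraries, by group (x axis, with *Sema6d*-/- shown as 6DKO). Symbols stand for replicates and bars for the mean of 3 libraries. *Bambi* and *Lif* were called lower with IL-33 in both genotypes, and *Areg*, *Furin*, *Ramp1* and *Ramp3* were not called.

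Cells that could make the same peptides in lung were looked for by their own markers. The sort gate took CD45+ cells, and the study gated epithelial and mesenchymal cells as CD45-. Pulmonary neuroendocrine cells, a known source of CGRP, were represented by 9 genes with a summed level of 0 to 4.16 FPKM, and *Chga* and *Resp18* were at 0 in all 12 libraries. *Uchl1* was the 1 gene of this list tested and had its highest mean over the 12 libraries. It was listed at 0 in the 6 PBS libraries, at 2.71, 1.77 and 1.69 FPKM in the WT libraries with IL-33 and at 0.116, 0.403 and 0.739 FPKM in the *Sema6d*-/- libraries with IL-33. No p is given for it, since it passed the filter only through the IL-33 libraries. Mucous cells, the usual source of trefoil peptides, were represented by 6 genes with a sum of at most 0.224 FPKM, 3 of them at 0 throughout, *Muc5ac* among them, and *Muc5b* with the highest mean over the 12 libraries. The 10 mesenchymal genes summed to at most 4.51 FPKM with *Col3a1* highest in the mean over the 12 libraries, and none was tested.

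Other markers did vary between libraries. The Lin antibodies of the sort gate, which left out Lin+ cells, included a macrophage antigen. The 14 macrophage genes summed to 435 FPKM in *Sema6d*-/- IL-33 replicate 2, 228 FPKM in *Sema6d*-/- PBS replicate 2 and 148 FPKM in *Sema6d*-/- IL-33 replicate 3, against 0.390 to 17.1 FPKM in the other libraries, with *Chil3* highest in the mean over the 12 libraries. Of these genes 8 were tested, and *Cd68* was above 2 and at most 4.87 FPKM in the 3 *Sema6d*-/- libraries with IL-33 and at 0 to 1.15 FPKM in the others. No p is given for *Cd68*, which passed the filter only through the IL-33 libraries, and 0 of the other 7 were called with IL-33. The 12 epithelial genes summed to 8.41 to 54.0 FPKM, except for 274 FPKM in *Sema6d*-/- PBS replicate 2, where *Ager* was at 199 FPKM, and 112 FPKM in *Sema6d*-/- IL-33 replicate 3, where *Sftpc* was at 97.2 FPKM. *Epcam* had their highest mean over the 12 libraries, 8 were tested, and *Epcam* was called lower with IL-33 in *Sema6d*-/- ILC2s (−3.73, SE 0.72, 3 of 3 libraries; limma, adjusted p = 0.0185), a call lost in 7 of 19 alternatives. *Sema6d*-/- PBS replicate 2 also held the highest *Vegfa* and *Bmp2* values of its group. The part of these markers in the levels of the members was not tested. Without these 3 libraries, which leaves 1 library in the *Sema6d*-/- IL-33 group, the genotype difference with IL-33 was 0.31 for *Vegfa* (0.67 with all libraries), 1.14 for *Bmp2* (0.85), −0.69 for *Tff1* (−0.92), −1.60 for *Penk* (−1.45), −1.18 for *Hbegf* (−1.02), 0.22 for *Calca* (0.26) and −0.09 for *Bmp7* (0.08).

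The genes whose log2(FPKM + 1) followed each member most closely over the 12 libraries were taken by Pearson's r, as a description. The 12 libraries share the split between PBS and IL-33, which weighs on each r. For *Tff1* they were *Fam195a* (r = 0.998), *Adgrg1*, *Hist1h2ak*, *Pkib* and *Slc15a3* (r = 0.990). For *Penk* they were *Ccne1* (r = 0.985), *Harbi1*, *Ccnb1*, *Fam195a* and *Gins2*. *Fam195a* stood on both lists, at 0 in the 6 PBS libraries, 4.77, 5.30 and 5.83 FPKM in WT and 3.95, 2.91 and 3.61 FPKM in *Sema6d*-/- libraries with IL-33. For *Bmp2* they were *Ier2* (r = 0.975), *Ccr2*, *Ahcyl2*, *Tmem176a* and *Cd24a* (r = 0.966). *Cd24a* was at 85.0, 94.5 and 63.9 FPKM in WT against 39.0, 60.9 and 28.6 FPKM in *Sema6d*-/- libraries with PBS, and at 0, 1.38 and 0.760 FPKM in WT and 4.89, 4.63 and 6.90 FPKM in *Sema6d*-/- libraries with IL-33. This is the order of the 4 groups that *Bmp2* had.

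For *Calca* the closest genes were *Lmo4* (r = 0.929), *Gata3* (r = 0.922), *Runx1t1*, *Ddx5* and *Coro2a* (r = 0.911). *Gata3*, the master transcription factor of ILC2s, was at 424 to 590 FPKM in WT and 382 to 690 FPKM in *Sema6d*-/- libraries with PBS and at 295 to 386 FPKM and 348 to 429 FPKM with IL-33. For *Bmp7* they were *Mbp* (r = 0.924), *Pisd*, *Tecpr1*, *Ip6k1* and *Ngly1* (r = 0.905), for *Vegfa* *Nanos1* (r = 0.930), *Kat2b*, *Hs3st3b1*, *Actr8* and *Rnf167* (r = 0.897), and for *Hbegf* *Fyttd1* (r = 0.884), *Haghl*, *Eif5a*, *Gtf2i* and *Tgoln1* (r = 0.847).

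Promoter sequences of RefSeq (GRCm38.p6) were matched by symbol for 3 of the 8 members, *Calca*, *Vegfa* and *Pthlh*. Those of *Calca* and *Vegfa* are printed, and that of *Pthlh* is left out because its window overlaps an annotated exon. The levels of the genes played no part in this choice. Each is the 250 bases before the start of the gene in RefSeq on the minus strand, clear of any annotated exon, at chr7:114636358-114636607 and chr17:46032378-46032627. Capitals mark matches, on either strand, to TGACG (the core of the cAMP response element), ACGTG (the core of the hypoxia response element), TGANTCA (the AP-1 site) or GGGCGG (the GC box).
*Calca*: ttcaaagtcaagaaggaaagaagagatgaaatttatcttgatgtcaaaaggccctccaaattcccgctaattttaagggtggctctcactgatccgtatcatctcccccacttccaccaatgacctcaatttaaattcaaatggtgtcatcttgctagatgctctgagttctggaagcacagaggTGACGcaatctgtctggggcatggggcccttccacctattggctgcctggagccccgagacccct
*Vegfa*: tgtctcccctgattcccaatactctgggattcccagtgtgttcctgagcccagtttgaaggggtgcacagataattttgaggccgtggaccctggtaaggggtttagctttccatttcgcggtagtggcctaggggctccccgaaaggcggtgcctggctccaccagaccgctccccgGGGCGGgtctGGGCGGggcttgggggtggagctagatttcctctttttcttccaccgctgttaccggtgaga
*Calca* held 1 match to TGACG, which was found in 17.8% of the same windows of 32851 promoters, and none to the others. *Vegfa* held 2 matches to GGGCGG, found in 32.7% of promoters, and none to the others. ACGTG was found in 16.6% and TGANTCA in 6.75% of promoters. A match is a description of the letters only.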

How the data were processed

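RNA of lung ILC2s was measured in 12 libraries, 3 in each of 4 groups of genotype and treatment. The authors deposited FPKM per gene and library, made per their processing notes with TopHat2 2.1.1, Bowtie2 and Cuffdiff 2.2.1 on mm10. The study's methods name Cuffnorm for the FPKM step and another TopHat version, so which programs made these values is uncertain. The annotation and the read totals are not given, so the precision of single values is not known. The values were joined by symbol, and those reaching a mean of 0.5 FPKM were tested on log2(FPKM + 1).

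Tests used limma 3.58.1 in R 4.3.3 (lmFit, and eBayes with trend, 4 group means, 8 residual degrees of freedom), with Benjamini-Hochberg adjustment over 11395 genes in each of 5 contrasts and a threshold of 0.05. The code was tested on simulated data. Genotypes were also compared by an exact permutation test, two-sided, of 3 against 3 libraries. Named are all members, the gene of each list with the highest mean over the 12 libraries, up to 3 genes per list past the threshold with the same sign in both IL-33 contrasts, any list gene past it between genotypes or in the interaction, 13 receptors, and the 5 genes most like each member. Any other gene was named after its values were seen. The members and lists were chosen with earlier results of these data known. Alternatives were a pseudocount of 0.1, no filter, quantile normalization, library weights, a replicate block, only the groups compared, each library left out in turn and, chosen after seeing the data, 3 libraries high in macrophage markers left out. Tables and figures used Python 3.11.15, numpy 2.4.6, pandas 2.3.3 and matplotlib 3.10.9.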

Additional observations from a re-analysis of the deposited data

How the results depend on the processing

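In the order *Sema6d*-/- against WT with IL-33, the same with PBS, IL-33 against PBS in WT, the same in *Sema6d*-/- ILC2s, and interaction, limma called 1, 66, 486, 324 and 2 genes. The counts were 2, 73, 494, 360 and 5 with a pseudocount of 0.1; 1, 33, 485, 349 and 3 with no filter; 0, 36, 479, 270 and 2 with quantile normalization; and 55, 1, 421, 224 and 2 with library weights. They were 1, 15, 361, 218 and 1 with a replicate block, and 0, 1, 509 and 314 with only the groups compared, which gives no interaction. Same-numbered libraries showed no correlation of their deviations from the group means (r −0.0468 to 0.0448, 0 of 18 pairs above 0.1). The labels do not say what the numbers mark. An r near 0 cannot show that libraries of 1 number share no day or batch. With the 3 libraries high in macrophage markers left out, chosen after seeing the data, the counts were 21, 10, 372, 31 and 14, with 1 library left in the *Sema6d*-/- IL-33 group. With 1 library left out they ranged over 0 to 3, 20 to 213, 202 to 691, 122 to 476 and 0 to 25. The IL-33 difference of *Penk* in *Sema6d*-/- ILC2s, for which no p is given, was 2.78 with library weights. It was 2.71 with the 3 libraries left out and 2.48 to 3.16 with 1 library left out.

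The IL-33 difference in log2 of *Tff1*, 7.52 in WT and 6.60 in *Sema6d*-/- ILC2s, was 10.83 and 9.91 with a pseudocount of 0.1, 7.20 and 6.37 with quantile normalization, and 6.83 in *Sema6d*-/- ILC2s with the 3 libraries left out. That of *Bmp2*, −3.77 and −2.53, was −4.06 in WT with a pseudocount of 0.1, −3.99 in WT with quantile normalization, and −2.00 in *Sema6d*-/- ILC2s with the 3 libraries left out. Differences that did not pass the test turned sign. With 1 library left out, the genotype difference ranged over −0.0661 to 0.23 for *Bmp7* with IL-33 (−0.0865 with the 3 libraries left out), −0.0103 to 0.54 for *Calca* with IL-33, and with PBS over −0.0928 to 0.48 for *Bmp7*, −0.57 to 0.75 for *Hbegf* and −1.46 to 0.54 for *Vegfa*. The interaction ranged over −0.40 to 0.18 for *Bmp7* (0.0338 with library weights) and −0.31 to 0.24 for *Calca*. The IL-33 difference in *Sema6d*-/- ILC2s ranged over −1.68 to 0.32 for *Vegfa* (0.10 with a pseudocount of 0.1) and −0.43 to 0.52 for *Igf1* (0.13 with a pseudocount of 0.1), and was −0.0495 for *Uchl1* with quantile normalization. In WT it ranged over −0.18 to 0.37 for *Cd68* (−0.28 with quantile normalization) and −0.0103 to 0.52 for *Hif1a*. At most 1 gene per direction was called, with 1 library left out, among the EGF family ligands, hypoxia targets, CGRP receptors and processing enzymes, where 0 were with all libraries. The cause of these changes was not tested.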

Other observations

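The label of the cells was checked against marker genes. All 14 listed ILC2 identity genes were tested and had means above 1 FPKM, with a summed level of 5987 to 9487 FPKM and *Id2* as the most abundant. In WT 2 of the 14 were called higher and 1 lower with IL-33, and in *Sema6d*-/- ILC2s 1 higher and 2 lower. *Il2ra*, the IL-2 receptor α chain, fell in both (−2.16 and −1.57, SE 0.25; limma, adjusted p = 0.000665 and 0.00666), and *Il17rb*, the IL-25 receptor, rose in both (0.89 and 1.32, SE 0.20; limma, adjusted p = 0.0254 and 0.00456), each in 3 of 3 libraries per genotype. The call of *Il17rb* in WT was lost in 6 of 19 alternatives and the other 3 of these in at most 1. The other called genes were *Klrg1*, higher in WT (1.19, SE 0.28; limma, adjusted p = 0.0318), and *Il5*, lower in *Sema6d*-/- ILC2s (−1.11, SE 0.26; limma, adjusted p = 0.0455), with 3 libraries per group, and these calls were lost in 9 and 13 of 19 alternatives. Leaving out 1 library, the number called higher in WT ranged over 0 to 3 and differed from 2 in 8 of 12 fits. In *Sema6d*-/- ILC2s the number called lower ranged over 1 to 4 and differed from 2 in 10 of 12, and the number called higher over 1 to 2.

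*Vegfa* is a classical target of hypoxia signalling, so those genes were listed as well. All 8 listed regulators were tested. *Hif1a*, the oxygen-sensitive transcription factor subunit and the most abundant of them, was called in *Sema6d*-/- ILC2s alone. It rose from 32.4, 29.2 and 33.2 FPKM with PBS to 101, 94.5 and 93.4 FPKM with IL-33, a difference of 1.58 (SE 0.27; limma, adjusted p = 0.01). In WT it was at 62.8, 94.7 and 44.9 FPKM with PBS and at 65.7, 70.2 and 97.4 FPKM with IL-33, a difference of 0.25 (SE 0.27) that did not pass (limma, adjusted p = 0.711). The interaction of 1.33 (SE 0.38) did not pass the test (limma, adjusted p = 0.676), so a difference between the genotypes in this response is not shown. The call was lost without *Sema6d*-/- IL-33 replicate 1 (1.54; limma, adjusted p = 0.0503) and with the 3 libraries high in macrophage markers left out, which leaves 1 library in that IL-33 group (1.60; limma, adjusted p = 0.265). All 10 listed hypoxia targets were tested and 0 were called, *Slc2a1* having the highest mean over the 12 libraries, though not in every group.

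Of 21 other growth factor genes 9 were tested. *Lif*, a cytokine of the IL-6 family and the most abundant of them, was called lower in both genotypes. It was at 136, 241 and 194 FPKM in WT against 213, 296 and 265 FPKM in *Sema6d*-/- libraries with PBS. With IL-33 it was at 31.8, 46.1 and 39.4 FPKM in WT against 43.3, 46.6 and 49.3 FPKM in *Sema6d*-/- libraries. The differences were −2.23 (SE 0.24) and −2.44 (SE 0.24), with each IL-33 library below each PBS library (limma, adjusted p = 0.000416 and 0.000373). The call in *Sema6d*-/- ILC2s was lost with the 3 libraries high in macrophage markers left out, where the difference was −2.43 with 1 library in that IL-33 group (limma, adjusted p = 0.0733).

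A further 2 growth factor genes were named after their values were seen, and *Csf1* was called in WT alone. *Csf1* fell in WT (−2.56 in log2(FPKM + 1), SE 0.49; limma, adjusted p = 0.0127), from 27.1 to 35.9 FPKM with PBS to 3.24 to 8.19 FPKM with IL-33 in 3 of 3 libraries. *Tgfb3* rose in *Sema6d*-/- ILC2s by 2.80 (SE 0.67), from a listing of 0 to 3.33 to 10.3 FPKM in 3 of 3 libraries. No p is given for *Tgfb3*, since it passed the filter only through the IL-33 libraries. In the other genotype the differences were −1.55 for *Csf1* and 1.52 for *Tgfb3*. That of *Csf1* did not pass (limma, adjusted p = 0.142), nor did its interaction (limma, adjusted p = 0.897). The call of *Csf1* depended on single libraries, with a highest adjusted p (limma) without 1 library of 0.0653. With 1 library left out the *Tgfb3* difference in *Sema6d*-/- ILC2s was 2.45 to 3.14. *Igf1* in WT lay between 3.12 and 11.7 FPKM with PBS and was listed at 0 in the 3 IL-33 libraries, and in *Sema6d*-/- ILC2s it was at most 2.36 FPKM with PBS and 1.71 FPKM with IL-33. No p is given for it, since it passed the filter only through the PBS libraries.

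The 8 endothelial genes summed to 1.32 to 23.1 FPKM, with *Pecam1* highest, 2 tested and 0 called. Of 8 granulocyte genes 7 were in the tables, their sum was 6.17 to 12.7 FPKM with *Cxcr2* highest, 2 were tested and 0 called, and *S100a8*, *S100a9*, *Prg2* and *Epx* were at 0 throughout. The 8 basophil and mast cell genes summed to 17.8 to 95.2 FPKM, nearly all from *Cpa3*, the 1 tested gene, which fell with IL-33 in WT (−1.54, SE 0.37, 3 of 3 libraries; limma, adjusted p = 0.0376). Of 7 B cell genes 6 were in the tables with a sum of 0 to 26.9 FPKM, 2 were tested, and *Cd79b*, with the highest mean over the 12 libraries, rose with IL-33 in WT (4.08, SE 0.88, 3 of 3 libraries; limma, adjusted p = 0.0228), while *Ms4a1* and *Pax5* were at 0 throughout. Of 10 T and NK cell genes 9 were in the tables with a sum of 0 to 9.81 FPKM, except for 67.8 FPKM in *Sema6d*-/- PBS replicate 2, where *Ncr1*, with the highest mean over the 12 libraries, was at 58.9 FPKM. Of this list 2 were tested and 0 called, and *Cd4* was at 0 throughout. The call of *Cpa3* was lost in 10 of 19 alternatives and that of *Cd79b* in 7. In WT PBS replicates 1 and 2 the B cell genes summed to 0.0345 and 0.139 FPKM, so the size of the *Cd79b* difference depends on the pseudocount. Over the alternatives it ranged from 3.56 to 6.97 in WT.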
